A study of Mus musculus with 20 samples.

Results

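*Jag1* and *Lhx1* are induced when nephron progenitor cells (NPCs) form the renal vesicle, the first epithelial structure of the nephron. Both were taken from the table of normalized counts as the rows whose Ensembl identifier was paired with these symbols in the tables of comparisons, which gave 2 of 31130 genes. *Jag1* (ENSMUSG00000027276) lies on chr2:137081451-137116520 and *Lhx1* (ENSMUSG00000018698) on chr11:84517975-84525534 in GRCm38.p6, the build of the RefSeq table used here for positions.

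The libraries came from cultured NPCs of E16.5 mouse kidneys, obtained from crosses of a Cas9-eGFP line with SWR/J mice. Every group, CTRL included, therefore carried Cas9 and eGFP, and every group received mCherry mRNA so that transfected cells could be sorted. CTRL cells received an sgRNA against GFP, α-catenin KO cells an sgRNA against *Ctnna1*, β-catenin KO cells sgRNAs against *Ctnnb1*, and QCKO cells a mixture of guides to the cadherin genes *Cdh11*, *Cdh2*, *Cdh3* and *Cdh4*. After a knockout period of 48 h the cells were kept for 24 h with CHIR, a GSK3β inhibitor that stabilizes β-catenin, either at 1.25 µM (low CHIR) or at 5 µM (high CHIR). The 8 groups held 20 libraries, with 3 each of CTRL and β-catenin KO and 2 each of α-catenin KO and QCKO in either CHIR condition. A replicate number stands for 1 of 3 dates in the sample titles, which do not say what was done on that date. α-catenin KO had dates 1 and 3 and QCKO dates 2 and 3. The sorted cells are a transfected population and not a clone, so a library may hold edited and unedited alleles, in shares that are not known here.

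*Jag1* encodes a membrane-bound ligand of the Notch receptors, and *Lhx1* a LIM-homeodomain transcription factor. When Wnt signals stabilize β-catenin, it enters the nucleus, binds Lef/Tcf factors and activates genes of the nephrogenic program. In the mouse kidney both genes mark the induced progeny of NPCs and take part in the patterning of the early nephron, whereas *Six2* and *Cited1* mark the uninduced progenitors.

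The promoters of *Jag1* and *Lhx1* are shown because the 2 genes moved together in these libraries. They are the 250 bases upstream of each annotated start, from RefSeq (GRCm38.p6), read 5′ to 3′ on the minus strand, on which both genes lie, at chr2:137116521-137116770 for *Jag1* and chr11:84525535-84525784 for *Lhx1*.
Jag1: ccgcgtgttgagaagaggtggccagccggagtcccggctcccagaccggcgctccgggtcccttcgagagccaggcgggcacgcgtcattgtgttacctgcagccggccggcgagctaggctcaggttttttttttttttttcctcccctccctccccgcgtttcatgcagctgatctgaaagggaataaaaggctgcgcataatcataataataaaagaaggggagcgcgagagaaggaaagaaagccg
Lhx1: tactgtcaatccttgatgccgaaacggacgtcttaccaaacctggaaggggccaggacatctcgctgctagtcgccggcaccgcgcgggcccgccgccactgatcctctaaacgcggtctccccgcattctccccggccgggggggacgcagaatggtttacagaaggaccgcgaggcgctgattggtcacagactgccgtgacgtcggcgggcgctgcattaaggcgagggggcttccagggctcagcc

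Neither window held the Lef/Tcf core CTTTGA on either strand, and both are therefore printed in lower case throughout. That core occurred in 13.8% of 32851 mouse promoter windows of the same length. The Rbpj motif GTGGGAA (5.42% of windows) and the homeodomain motif TAATTA (4.84%) were also not matched in either window. GC content was 57.2% for *Jag1* and 64.8% for *Lhx1*, against a median of 52.4% over all windows.

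The sgRNAs of the β-catenin KO are shown because this knockout gave the largest differences of *Jag1* and *Lhx1* from CTRL in high CHIR. The study lists 4 guide names for *Ctnnb1*, named for exons 2, 3, 3 and 6, but guides 5 and 6 carry the same 20 bases, which leaves 3 distinct sequences.
Ctnnb1 sgRNA 1: atgagcagcgtcaaactgcg
Ctnnb1 sgRNA 3: agccaagcgctggacattag
Ctnnb1 sgRNA 5: gagattatgcagtgtcgtga

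The libraries held 18124772 to 28472412 reads recovered from the normalized counts. *Ctnna1* was at 3564 to 3790 normalized counts in the α-catenin KO libraries and at 5817 to 10082 in CTRL. *Cdh11* was at 1818 to 2519 in QCKO against 3594 to 5112 in CTRL in low CHIR, and at 589 to 1005 against 1883 to 2092 in high CHIR. *Cdh2* overlapped between QCKO and CTRL in low and in high CHIR, as did *Cdh3* and *Cdh4*. These are RNA levels and do not measure the loss of protein. By immunofluorescence the study reported complete or nearly complete removal of the targeted cadherins and of α-catenin. *Ctnnb1* itself was not analysed here, because the tables used do not pair an identifier with it. The progenitor genes *Six2* and *Cited1* stood at 943 to 1642 and 3987 to 6965 normalized counts in CTRL in low CHIR, and at 64.1 to 83.8 and 355 to 641 in high CHIR. CTRL replicate 2 in high CHIR stood apart from the other libraries, with an upper quartile of 774 normalized counts against 828 to 891 elsewhere. β-catenin KO replicates 2 and 3 in low CHIR stood above every CTRL library in low CHIR in *Wnt4* and *Lef1*. They did so too in *Greb1*, *Cdh3* and *Bmp7*, the last at 427 and 400 normalized counts against 23.2 to 74.7. *Sox11* and *Uncx* did not exceed the CTRL range in either. *Wnt4*, a ligand that drives the epithelial transition, was at 831 and 634 normalized counts in these 2 libraries, against 30.1 in replicate 1 and 41.1 to 72.6 in CTRL. *Lef1*, a partner of nuclear β-catenin, was at 660 and 532, against 62.3 in replicate 1 and 62.5 to 72.6 in CTRL. In high CHIR these replicates were also apart from replicate 1 of the same knockout, with *Wnt4* at 2387 and 1200 against 252 and *Lef1* at 677 and 1020 against 93.6. In bulk RNA, a smaller number of cells that express a gene and less RNA per cell cannot be told apart.

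In low CHIR, both genes followed the date in every genotype. *Jag1* was at 145, 505 and 694 normalized counts in CTRL replicates 1, 2 and 3, and at 185, 664 and 1425 in β-catenin KO. It was at 218 and 900 in α-catenin KO replicates 1 and 3 and at 359 and 907 in QCKO replicates 2 and 3. In each genotype the library of date 3 was the highest, and where date 1 was measured it was the lowest. Within CTRL, date 3 exceeded date 1 by 4.80-fold for *Jag1*, and by 7.71-fold within β-catenin KO.

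*Lhx1* had the same order in low CHIR at few reads. It was at 17.9, 95.3 and 131 normalized counts in CTRL replicates 1 to 3, and at 13.97, 109 and 327 in β-catenin KO. It was at 14.6 and 111 in α-catenin KO replicates 1 and 3 and at 53.8 and 145 in QCKO replicates 2 and 3. The 3 values of date 1 rest on 20, 13 and 17 reads in CTRL, β-catenin KO and α-catenin KO, so ratios over them are imprecise. Date 3 exceeded date 1 by 7.35-fold in CTRL and 23.4-fold in β-catenin KO. The libraries of the 4 genotypes overlapped for both genes in low CHIR.

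In high CHIR, *Jag1* was at 7444, 2725 and 13323 normalized counts in CTRL replicates 1 to 3. It was at 5316 and 7704 in α-catenin KO replicates 1 and 3, and at 4024 and 10563 in QCKO replicates 2 and 3. In β-catenin KO it was at 906, 2293 and 4279. Date 3 was again the highest in each genotype, but CTRL replicate 2 was the lowest CTRL library, whereas in β-catenin KO the lowest was replicate 1.

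*Lhx1* was at 2785, 610 and 3850 normalized counts in CTRL replicates 1 to 3 in high CHIR. It was at 1645 and 1585 in α-catenin KO replicates 1 and 3, at 1217 and 2772 in QCKO replicates 2 and 3, and at 183, 601 and 992 in β-catenin KO. The β-catenin KO libraries lay below every α-catenin KO and QCKO library for *Lhx1*. For *Jag1* they lay below every α-catenin KO library, and the highest of them exceeded QCKO replicate 2. Both genes overlapped between β-catenin KO and CTRL, and only through CTRL replicate 2.

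**Figure D1:**
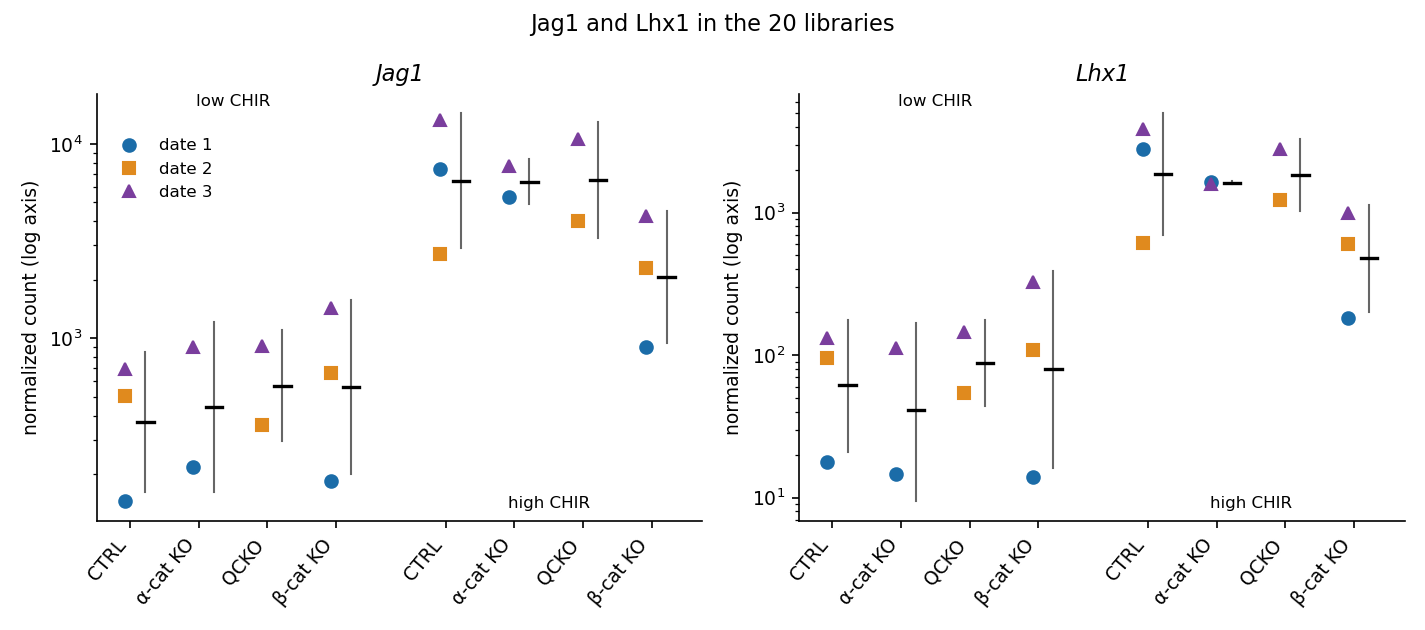
Normalized counts (log axis) of *Jag1* and *Lhx1* in every library by genotype, with low CHIR on the left and high CHIR on the right of each panel; symbols mark the date, and the bar and line give the mean and SD of log2 values. Date 1 is lowest in low CHIR, and CTRL in high CHIR spans 2725 to 13323 for *Jag1* and 610 to 3850 for *Lhx1*.

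High CHIR raised both genes in CTRL, which addresses whether the cultures entered the nephrogenic program. The lowest CTRL library in high CHIR stood above the highest in low CHIR for both, and the share of all genes with such a gap was not computed. The log2 fold change was 4.12 for *Jag1* (95% confidence interval 2.55 to 5.69) and 4.91 for *Lhx1* (2.99 to 6.83), with limma adjusted p-values of 0.00306 and 0.0035. These 2 members were both called (adjusted p under 0.05 and absolute log2 fold change over 0.5), where 10.7% of 16516 genes tested were. Symbols were given only to genes that differed in one of the authors' comparisons of these libraries. The calls of the members can therefore not be set against that share. The p-values measure the spread between these libraries, which share 3 dates.

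Taken date by date, the size of this response differed between dates by about an order of magnitude or more. The CTRL ratio of high to low CHIR was 51.5, 5.40 and 19.2 for *Jag1* on dates 1 to 3. For *Lhx1* it was 156, 6.40 and 29.3. Date 1 had the largest ratio and the lowest levels in low CHIR, and date 2 had the smallest ratio and the lowest levels in high CHIR. Both genes stayed called when any 1 CTRL library was left out. The log2 fold changes ran from 3.45 and 4.05 without replicate 1 in low CHIR to 4.75 and 5.72 without replicate 2 in high CHIR.

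Both genes also rose in α-catenin KO and QCKO, in which parts of the adhesion complex were targeted. In α-catenin KO the ratio of *Jag1* was 24.4 on date 1 and 8.56 on date 3, and that of *Lhx1* 112 and 14.3. In QCKO the ratio of *Jag1* was 11.2 on date 2 and 11.6 on date 3, and that of *Lhx1* 22.6 and 19.2. No library of either knockout in high CHIR overlapped its low CHIR libraries for these genes. With 2 libraries a side such a gap can also arise without a change, and its share over all genes was not computed.

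The limma log2 fold change was 3.85 for *Jag1* (adjusted p = 0.0274) and 5.27 for *Lhx1* (adjusted p = 0.014) in α-catenin KO, where 4.39% of genes were called. In QCKO, where 4.93% were called, it was 3.51 (adjusted p = 0.0391) and 4.36 (adjusted p = 0.0356). edgeR did not call *Jag1* in α-catenin KO (adjusted p = 0.0529). With 2 libraries a group, the calls also rested on single libraries. Leaving out 1 of them leaves a single library, which is assumed to vary like the other groups. Neither gene was called in QCKO when any 1 QCKO library was left out or all 20 libraries were fitted. In α-catenin KO neither was called without low CHIR replicate 1 or without either high CHIR library, and the log2 fold changes then ran from 2.83 to 4.12 for *Jag1* and from 3.85 to 5.30 for *Lhx1*.

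β-catenin KO cells, in which the transcriptional partner of Lef/Tcf was targeted, had a rise on each date that was smaller than that of CTRL. The ratio of high to low CHIR was 4.90, 3.46 and 3.002 for *Jag1* on dates 1 to 3, and 13.1, 5.51 and 3.04 for *Lhx1*. In log2 units the response of *Jag1* minus that of CTRL of the same date was −3.39, −0.64 and −2.67. For *Lhx1* this difference was −3.59, −0.21 and −3.26. The gap was thus narrowest on date 2 for both, the date of the low CTRL library, and was in the same direction on 3 of 3 dates.

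The high and low CHIR libraries of β-catenin KO overlapped for both genes across dates, because date 1 in high CHIR lay below date 3 in low CHIR. The limma log2 fold change was 1.89 for *Jag1* (95% confidence interval 0.12 to 3.65) and 2.56 for *Lhx1* (0.28 to 4.84), each with an adjusted p of 0.999. Only 0.018% of 16691 genes were called in this comparison. With the date as a block the adjusted p-values were 0.167 and 0.251. The log2 fold changes fell to 1.09 and 1.33 without low CHIR replicate 1, and were 2.56 and 3.56 without low CHIR replicate 3 and 2.48 and 3.25 without high CHIR replicate 1, with no call in any.

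The difference of the response to CHIR between β-catenin KO and CTRL was −2.24 in log2 units for *Jag1* (95% confidence interval −4.73 to 0.26, adjusted p = 0.535). For *Lhx1* it was −2.36 (−5.58 to 0.87, adjusted p = 0.612). Neither was called, where 0.671% of genes were. With β-catenin KO low CHIR replicates 2 and 3 left out together, a choice made after seeing the data, the differences were −0.64 and 0.087, which sets low CHIR on date 1 against high CHIR on all dates.

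**Figure D2:**
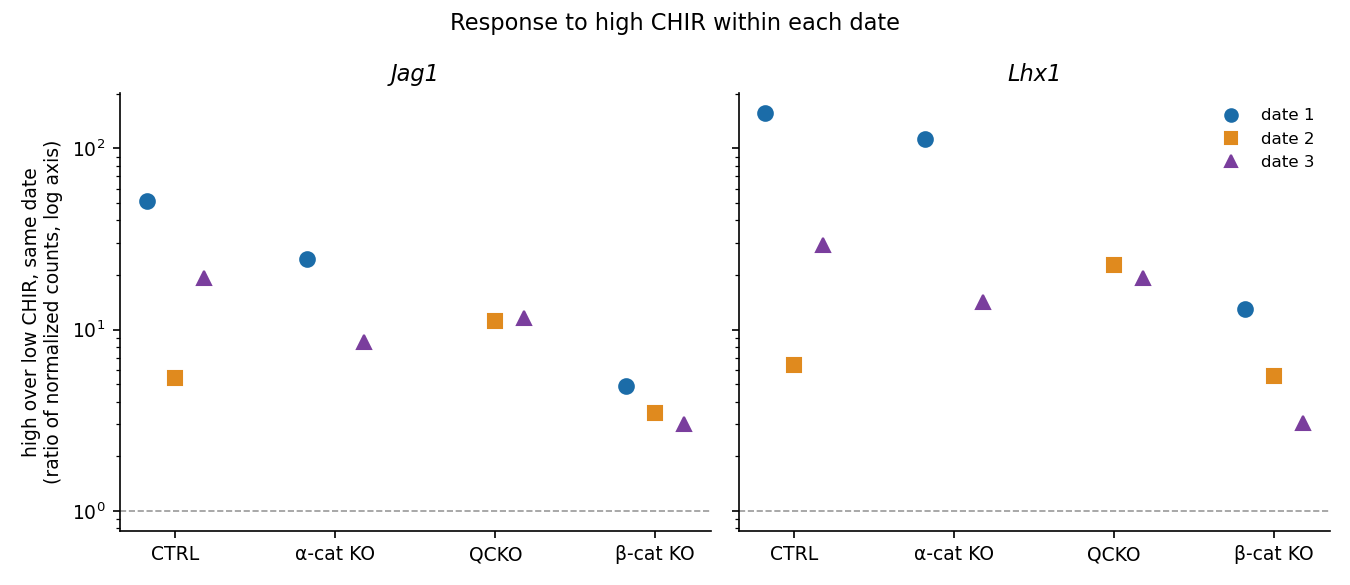
Ratio of the normalized count in high CHIR to that in low CHIR (log axis) for each genotype, with symbols for the date and a dashed line at equality. All points lie above the line, and β-catenin KO ranges from 3.002 to 4.90 for *Jag1* and from 3.04 to 13.1 for *Lhx1*.

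In high CHIR, β-catenin KO was below CTRL for both genes on every date, but by very different amounts. *Jag1* stood at 12.2%, 84.2% and 32.1% of CTRL on dates 1 to 3. *Lhx1* stood at 6.55%, 98.5% and 25.8%. The values on date 2 were close to CTRL, and those on dates 1 and 3 were not. Beside the low CTRL library of date 2, date 2 had the highest *Wnt4* of β-catenin KO in high CHIR and date 1 the lowest, and the part of either in these percentages was not tested.

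Over the groups, the log2 fold change was −1.64 for *Jag1* (95% confidence interval −3.41 to 0.12, adjusted p = 0.212) and −1.97 for *Lhx1* (−4.25 to 0.31, adjusted p = 0.245). Neither was called by limma, while 10.5% of 16691 genes were. With the date as a block, *Jag1* was called (adjusted p = 0.0266) and *Lhx1* was not (adjusted p = 0.0764), and the number of genes called rose from 1757 to 2881. The log2 fold changes were −2.26 and −2.77 without CTRL replicate 2 (adjusted p = 0.155 and 0.177), and −1.05 and −1.28 without β-catenin KO replicate 1 (adjusted p = 0.506 and 0.537).

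In low CHIR, β-catenin KO was at 128%, 131% and 205% of CTRL for *Jag1* on dates 1 to 3, and at 78.3%, 114% and 249% for *Lhx1*. Date 3 was thus the date with the largest excess over CTRL for both. The limma log2 fold changes were 0.59 (adjusted p = 0.987) and 0.39 (adjusted p = 0.996), and 0.0659% of genes were called. Leaving out β-catenin KO replicate 3 alone turned both fold changes negative, and leaving out replicate 1 alone raised them to 1.39 and 1.61. Without β-catenin KO replicates 2 and 3 together they were −0.999 and −2.05. That leaves 1 β-catenin KO library, of date 1 and assumed to vary like the other groups, against all 3 CTRL libraries.

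α-catenin KO was compared with CTRL to ask whether induction needs the link from cadherins to the cytoskeleton. In high CHIR, *Jag1* stood at 71.4% of CTRL on date 1 and 57.8% on date 3, and *Lhx1* at 59.1% and 41.2%. Both genes were thus below CTRL on 2 of 2 dates. The group comparison, which also holds the CTRL library of date 2, gave log2 fold changes of −0.015 for *Jag1* (95% confidence interval −1.77 to 1.74) and −0.21 for *Lhx1* (−2.36 to 1.93).

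Without CTRL replicate 2 the log2 fold changes were −0.64 and −1.02, both with an adjusted p of 1. In low CHIR, *Jag1* was at 151% and 130% of CTRL and *Lhx1* at 81.9% and 84.7%, with log2 fold changes of 0.26 (adjusted p = 1) and −0.57 (adjusted p = 1). In high CHIR limma called 0 of 16516 genes (0%), with 928 at an unadjusted p under 0.05, edgeR called 0 and DESeq2 4. In low CHIR limma called 0 (0%), with 109 at an unadjusted p under 0.05, edgeR called 0 and DESeq2 1. With the date as a block, the log2 fold changes in high CHIR were −0.22 for *Jag1* (95% confidence interval −1.38 to 0.93) and −0.43 for *Lhx1* (−2.14 to 1.28).

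QCKO cells, which were targeted for 4 cadherins, lay on both sides of CTRL. In high CHIR, *Jag1* stood at 148% of CTRL on date 2 and 79.3% on date 3, and *Lhx1* at 200% and 72.0%. The date 2 values have CTRL replicate 2 as the denominator. The log2 fold changes over the groups were 0.012 for *Jag1* (95% confidence interval −1.75 to 1.77) and −0.026 for *Lhx1* (−2.17 to 2.12), and −0.61 and −0.83 without that library. With the date as a block they were −0.24 (−1.40 to 0.91) and −0.29 (−2.001 to 1.42).

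In low CHIR, QCKO was at 71.2% and 131% of CTRL for *Jag1* on dates 2 and 3 and at 56.4% and 110% for *Lhx1*. The log2 fold changes over the groups, which also hold the CTRL library of date 1, were 0.62 and 0.52, each with an adjusted p of 1. That library was the lowest of CTRL, and the mean log2 ratios within dates 2 and 3 were −0.052 and −0.34. In high CHIR limma called 0 genes (0%), with 1444 at an unadjusted p under 0.05, edgeR called 0 and DESeq2 7. In low CHIR limma called 1 gene (0.00605%). Neither *Jag1* nor *Lhx1* was called in any of these comparisons of QCKO with CTRL by limma, edgeR or DESeq2.

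The response to CHIR of either knockout was not separable from that of CTRL. In α-catenin KO the difference from the CTRL response was −0.27 in log2 units for *Jag1* (95% confidence interval −2.76 to 2.21) and 0.36 for *Lhx1* (−2.68 to 3.39). In QCKO it was −0.61 (−3.10 to 1.87) and −0.55 (−3.58 to 2.49). limma, edgeR and DESeq2 each called 0 genes in both tests of the difference (0%), with 258 and 213 at an unadjusted p under 0.05 by limma. Within a date, the *Jag1* response minus that of CTRL was −1.07 and −1.16 in α-catenin KO on dates 1 and 3. The *Lhx1* response minus that of CTRL was −0.49 and −1.04 on these dates, both opposite in sign to the difference over the groups, which also hold the CTRL libraries of date 2. In QCKO the difference was 1.05 on date 2 and −0.72 on date 3 for *Jag1*, and 1.81 and −0.61 for *Lhx1*. All of these comparisons share the CTRL libraries.

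**Figure D3:**
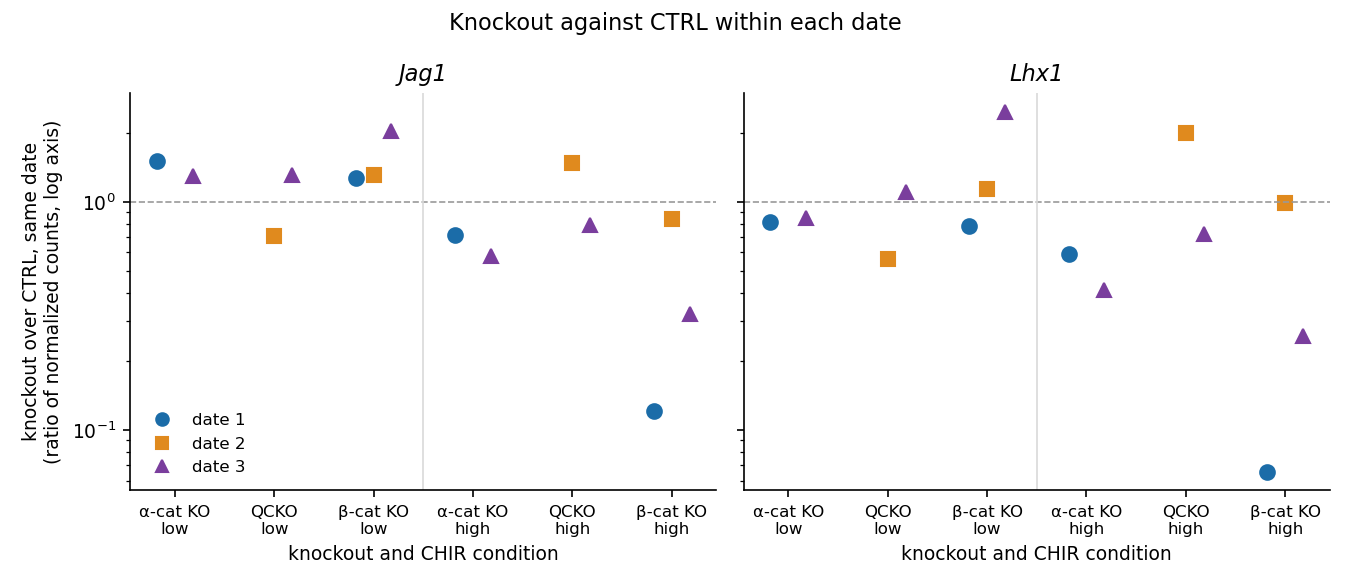
Ratio of each knockout library to the CTRL library of the same date and CHIR condition (log axis), with low CHIR to the left and high CHIR to the right of the vertical line and a dashed line at equality. β-catenin KO in high CHIR lies furthest below CTRL on date 1, at 12.2% for *Jag1* and 6.55% for *Lhx1*, and near CTRL on date 2.

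Ranked by mean level, the 4 high CHIR groups stood above the 4 low CHIR groups for both genes. *Jag1* rose from CTRL in low CHIR (448 ± 279 normalized counts, SD, n = 3) through α-catenin KO (559 ± 482, n = 2), QCKO (633 ± 388, n = 2) and β-catenin KO in low CHIR (758 ± 626, n = 3). It went on through β-catenin KO (2492 ± 1695, n = 3), α-catenin KO (6510 ± 1688, n = 2), QCKO (7293 ± 4623, n = 2) and CTRL (7830 ± 5310, n = 3) in high CHIR. The only neighbours in this order whose libraries did not overlap were β-catenin KO and α-catenin KO in high CHIR.

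For *Lhx1* the same held, with α-catenin KO lowest in low CHIR (62.9 ± 68.3, n = 2) and β-catenin KO highest (150 ± 160, n = 3). In high CHIR, *Lhx1* was at 592 ± 405 (n = 3) in β-catenin KO, 1615 ± 42.1 (n = 2) in α-catenin KO, 1994 ± 1099 (n = 2) in QCKO and 2415 ± 1651 (n = 3) in CTRL. The close pair of α-catenin KO values was the exception. In CTRL the SD of log2 values was 1.19 in low and 1.16 in high CHIR for *Jag1*, where the median SD of the 1000 genes nearest in level was 0.25 and 0.32. For *Lhx1* it was 1.51 and 1.42, against 0.42 and 0.32.

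*Jag1* and *Lhx1* moved together within each CHIR condition. Pearson's r of their log2 values was 0.97 over the 10 low CHIR libraries and 0.98 over the 10 high CHIR libraries, which share dates. Genes have a symbol only where they differed in one of the authors' comparisons, and genes without one were not ranked. Among 2868 other genes with a symbol and a mean of at least 100 normalized counts, *Lhx1* was most like *Jag1*. Across all 20 libraries r was 0.99, a value that includes the difference between CHIR conditions. *Igsf1*, *Lrp4*, *Epha4* and *Spata13* followed at r = 0.97 each. For *Lhx1* they were *Jag1*, *Spata13*, *Lrp4*, *Gpr20* and *Igsf1*, at r = 0.96 or more.

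When group means were subtracted, which leaves the variation among dates and that of single libraries, *Ltbp1* was closest to *Jag1* (r = 0.98), followed by *Lhx1* (0.98), *Emx2* (0.95), *Lypd6b* (0.95) and *Papss2* (0.94). *Ltbp1* encodes a protein that binds latent TGFβ, and *Emx2* a homeodomain factor of the early nephron. For *Lhx1* the closest were *Jag1* (0.98), *Lypd6b* (0.96), *Ltbp1* (0.95), *Lrp4* (0.94) and *Emx2* (0.94). These are descriptions over 20 libraries of 3 dates, among the same genes with a symbol.

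**Figure D4:**
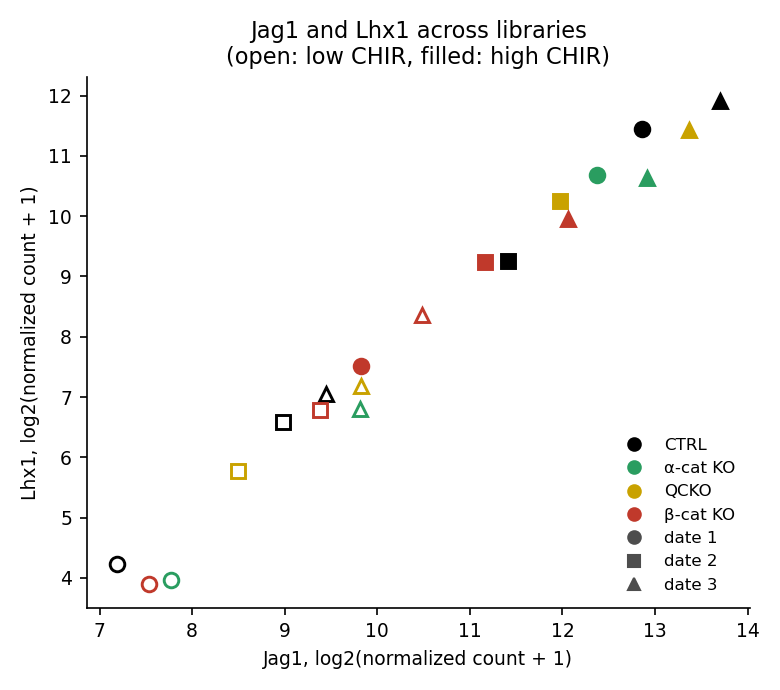
log2(normalized count + 1) of *Lhx1* against that of *Jag1* in the 20 libraries, with open symbols for low and filled symbols for high CHIR, shapes for the date and colours for the genotype. The 3 low CHIR libraries of date 1 sit together at the lower left, and r is 0.97 within low and 0.98 within high CHIR.

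*Lhx1os*, a noncoding RNA gene chosen after its values were seen, is annotated on the opposite strand at chr11:84525660-84535831, 125 bases beyond the start of *Lhx1*, so that the window printed above includes its first bases. It was at 7.14, 50.9 and 92.1 normalized counts in CTRL replicates 1 to 3 in low CHIR and at 697, 582 and 1217 in high CHIR. With the β-catenin KO, it was at 41.6, 212 and 297 in high CHIR, below each CTRL library, but the group difference was not called (log2 fold change −2.51, adjusted p = 0.312). Its rise in high CHIR was called in CTRL (adjusted p = 0.0236) and α-catenin KO (adjusted p = 0.0374), and not in QCKO (adjusted p = 0.159) or β-catenin KO (adjusted p = 0.999). On date 2, *Lhx1os* stood at 36.4% of CTRL where *Lhx1* stood at 98.5%. The library kit does not mark strand, but the annotated spans of the 2 genes do not overlap.

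Other genes of the Notch pathway mostly fell or did not pass the test when *Jag1* rose in CTRL. Of 6 ligands, 2 had an identifier, and *Jag2*, the other Jagged ligand, was at 9.07 to 23.8 normalized counts in the 6 CTRL libraries (log2 fold change −0.18, adjusted p = 0.813). *Notch2*, the only receptor of 4 with an identifier, was at 3502 to 4302 in low CHIR and 543 to 2100 in high CHIR (log2 fold change −1.55, limma adjusted p = 0.0235). *Notch2* was lowest in CTRL replicate 2 in high CHIR, the library with the least *Jag1* there. Without that library its log2 fold change was −0.91 (adjusted p = 0.00123), and it was not called in α-catenin KO (−0.96, adjusted p = 0.388) or QCKO (−1.01, adjusted p = 0.359).

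Among target genes, *Heyl* and *Hes1*, which encode related transcriptional repressors, moved in opposite directions. *Heyl* was at 40.2, 54.2 and 99.5 normalized counts in CTRL in low CHIR and at 1315, 219 and 755 in high CHIR (log2 fold change 3.30, limma adjusted p = 0.0106). *Hes1* was at 847, 1281 and 1023 in low CHIR and at 238, 455 and 374 in high CHIR (log2 fold change −1.59, limma adjusted p = 0.00116). *Heyl* was lowest on date 2 in high CHIR, as *Jag1* was.

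Of 13 effectors, 3 had an identifier, with 1 called higher and 2 lower, the second being the coactivator *Maml2* (log2 fold change −0.85). Of 19 modulators, 5 had an identifier, of which 2 fell and 3 were not called. Those that fell were *Neurl1b*, a ubiquitin ligase of Notch ligands (log2 fold change −1.42), and *Aph1a*, a γ-secretase subunit (log2 fold change −0.71, adjusted p = 0.0499). With CTRL replicate 2 in high CHIR left out, a choice made after seeing the data, *Aph1a* (−0.45, adjusted p = 0.0927) and *Maml2* (−0.71, adjusted p = 0.0619) were no longer called. Over all genes tested, 10.7% were called in this comparison, and the median log2 fold change was −0.0059. Symbols were given only to genes that differed in one of the authors' comparisons, so these lists are partial and are selected for a difference.

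In β-catenin KO, *Heyl* did not overlap between CHIR conditions. In high CHIR it was at 1489, 882 and 1232 normalized counts in β-catenin KO, against 59.1, 56.97 and 221 in low CHIR (log2 fold change 3.68, adjusted p = 0.105). Against CTRL in high CHIR the log2 fold change of *Heyl* was 0.96 (adjusted p = 0.390), while *Maml2* rose by 1.79 (limma adjusted p = 0.000124), *Neurl1b* by 1.80 and *Aph1a* by 0.82. *Maml2* was at 725 to 1175 normalized counts in β-catenin KO against 373 to 530 in CTRL already in low CHIR (log2 fold change 0.97, adjusted p = 0.188), and its log2 fold change from low to high CHIR in that knockout was −0.033. *Notch2* and *Hes1*, with log2 fold changes of 1.08 and 0.72, did not pass (adjusted p = 0.0693 each). When CTRL replicate 2 was left out they were 0.44 (adjusted p = 0.204) and 0.92 (adjusted p = 0.0418), so that *Hes1* was then called.

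Of 22 LIM-domain partners and relatives of *Lhx1*, 5 had an identifier, which genes had only where they differed in one of the authors' comparisons, and 3 were tested. All genes tested were called at 10.7% in CTRL and at 10.5% between β-catenin KO and CTRL in high CHIR. *Ssbp2*, which encodes a protein of the LIM cofactor complex, fell in CTRL in high CHIR (log2 fold change −1.19, limma adjusted p = 0.00271), as did *Lmo4*, a LIM-only protein that binds the same cofactor (−1.30, adjusted p = 0.0427). *Ssbp3* had a log2 fold change of 0.72 (adjusted p = 0.0686). When CTRL replicate 2 in high CHIR was left out, *Lmo4* was not called (−0.95, adjusted p = 0.132) and *Ssbp3* was (1.00, adjusted p = 0.00402). In β-catenin KO against CTRL in high CHIR, *Ssbp2* rose by 1.01 (adjusted p = 0.0282) and *Ssbp3* fell by 0.78 on the log2 scale (adjusted p = 0.0322).

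Of 32 renal vesicle genes, *Jag1* and *Lhx1* among them, 19 had an identifier, all passed the filter, and 14 rose and 2 fell in CTRL in high CHIR, with a median log2 fold change of 2.36. Over all 16516 genes tested, 799 rose and 961 fell (10.7%), a share that is not comparable, since the list genes have an identifier only where they differed in one of the authors' comparisons. Without CTRL replicate 2 in high CHIR, 15 rose. *Wnt4* had the largest log2 fold change, 6.33, and was followed by *Lhx1*, *Jag1*, *Lef1* (4.09), *Emx2* (4.06), the Wnt-responsive gene *Greb1* (4.03) and the ligand *Bmp7* (3.99). *Cdh3* (2.70), *Mecom* (2.36), *Bmp2* (2.36) and the nephron factor *Pax2* (2.19) also rose. *Tmem100* and *Sox9* fell.

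*Wnt4* spanned 41.1 to 72.6 normalized counts in low and 4156 to 5401 in high CHIR in CTRL, a narrower range than that of *Jag1* or *Lhx1*. In β-catenin KO its range was the wider, with 30.1 to 831 in low and 252 to 2387 in high CHIR. In β-catenin KO against CTRL in high CHIR, 3 of the 19 were called lower (*Pax2*, *Sox11* and *Cdh4*, with log2 fold changes of −1.83, −1.56 and −1.46) and 2 higher (*Tmem100*, 3.23, and *Sox9*, 1.28). *Pax2* and *Sox11* encode transcription factors and *Cdh4* a cadherin. The list genes have an identifier only where they differed in one of the authors' comparisons, which used the same CTRL libraries. Values over all genes are therefore not a comparable background for the medians that follow. The median log2 fold change of the list was −1.52, against 0.016 over all genes tested, of which 477 were called lower and 1280 higher (10.5% of 16691). In high against low CHIR within β-catenin KO, the median was 0.52 against 0.025 over all genes tested. limma called no gene of the list there, in a comparison with 3 of 16691 genes called (0.018%), so the absence of calls says nothing about the list. *Lhx1*, *Jag1* and *Wnt4* had the largest log2 fold changes there, at 2.56, 1.89 and 1.82.

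**Figure D5:**
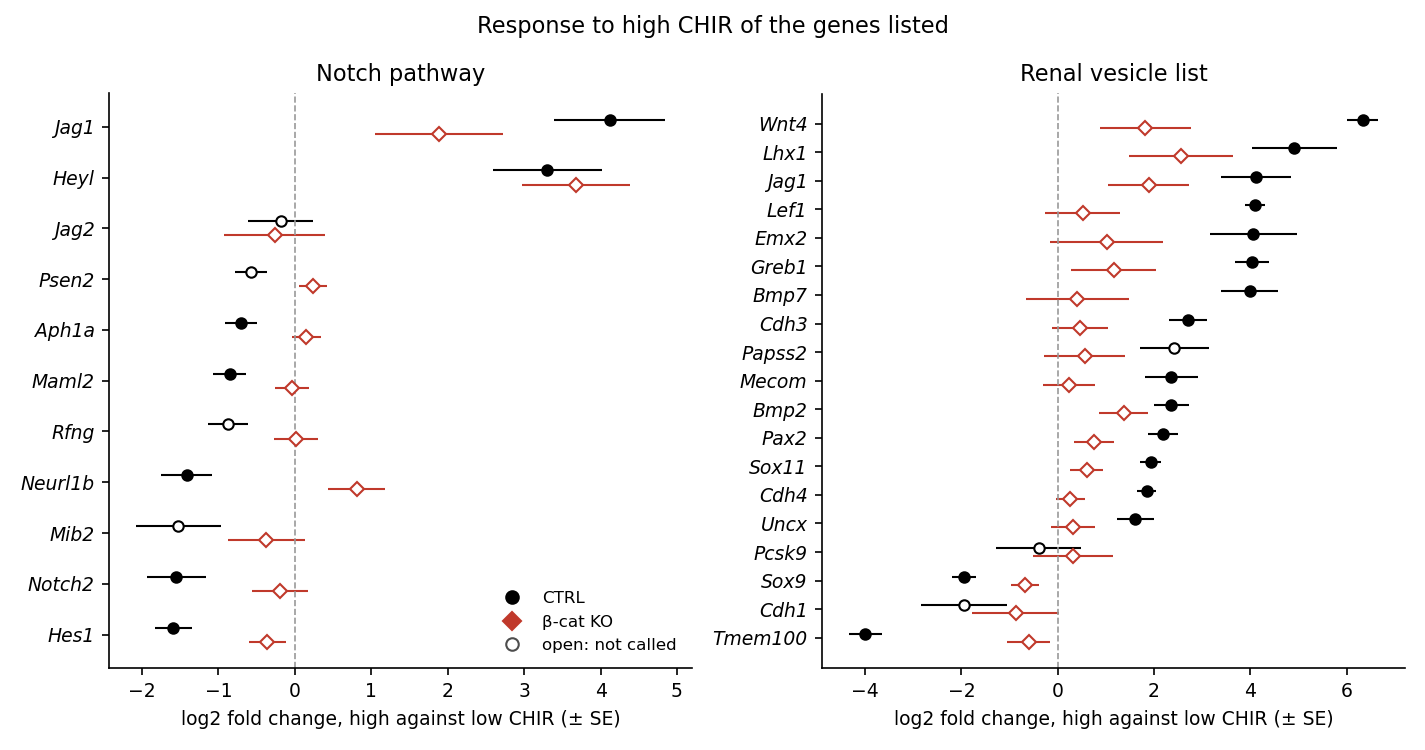
Log2 fold change of high against low CHIR with its SE for the Notch pathway genes (left) and the renal vesicle list (right) in CTRL (black circles) and β-catenin KO (red diamonds), with open symbols for genes not called. In CTRL *Jag1* and *Heyl* lie to the right and *Hes1* and *Notch2* to the left, and no gene of either list is called in β-catenin KO, where 0.018% of all genes were.

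Markers of other cell types were few among the genes with a symbol. All 8 of 15 progenitor markers with an identifier fell in CTRL in high CHIR. The share of all genes called was 10.7%, but markers had an identifier only where they differed in one of the authors' comparisons, so the 2 shares are not comparable. Their summed level was 15680 to 21943 normalized counts in low and 1483 to 2265 in high CHIR. The sum in β-catenin KO was 7655 to 15384 in high CHIR, and all 8 were called higher than in CTRL (10.5% of all genes were called), although *Eya1* was not without CTRL replicate 2 (adjusted p = 0.0613). For 13 ureteric markers, 5 with an identifier, the sum was 286 to 1008 in low and 857 to 1028 in high CHIR in CTRL, and of 4 tested *Hoxb7* and *Gata3* rose. *Tfap2b* and *Krt8* had log2 fold changes of −1.43 and −1.21 and were not called, and the median of the list was −0.025. In α-catenin KO the ureteric sum was 394 to 915 in low and 1212 to 2012 in high CHIR, and in QCKO it was 528 to 718 and 1710 to 1867. Both stood above every CTRL library in high CHIR. *Gata3* was at 857 and 874 in QCKO in high CHIR against 171 to 354 in CTRL, and *Krt8* at 229 and 466 in α-catenin KO against 22.7 to 79.9. *Tfap2b* went the other way in QCKO, at 7.48 and 10.9 against 13.6 to 21.2 in CTRL. *Hoxb7* overlapped CTRL in both knockouts, as did *Gata3* and *Tfap2b* in α-catenin KO. None of the 4 tested was called against CTRL in high CHIR in either knockout, where 0% of all genes were. *Wnt11*, a marker of the ureteric tip, was at 0 to 15.5 in all libraries. The endothelial list had 1 of 8 genes, *Tek*, at 0 to 3.25 in low and 89.7 to 177 in high CHIR in CTRL. The stromal list had 1 of 10, *Meis1*, which fell, and no leukocyte marker had an identifier. The part of other cell types in the levels of *Jag1* and *Lhx1* was not tested.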

How the data were processed

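The authors sequenced paired-end mRNA libraries from sorted mCherry+ NPCs and deposited a signal table in which the reads of each gene were scaled by a factor of the library, as well as tables of their own comparisons (fold changes and p-values), from which symbols and no values were taken. The submitters' processing notes name bcl2fastq, STAR, Subread, featureCounts, Salmon and DESeq2 and the builds GRCm38, GRCh38 and mm10, without their roles. Values were whole multiples of a step per library (tolerance 0.01 of a read), so reads were recovered. The check is less telling where that factor is nearly 1, as for replicate 2 of β-catenin KO (low CHIR) and replicate 3 of α-catenin KO (high CHIR). Symbols covered 4316 of 31130 genes.

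Log2(normalized count + 1) was compared with limma 3.58.1 in R 4.3.3 (trend, 1 mean per group, mean of at least 10, Benjamini-Hochberg adjustment, calls at adjusted p under 0.05 and absolute log2 fold change over 0.5), in a fit of 14 libraries without β-catenin KO or of all 20. Differences of the response to CHIR were interaction terms. edgeR 4.0.16 and DESeq2 1.42.0 on recovered reads were alternatives. The fits were tested on simulated data. Groups and dates came from the sample titles, which do not say what a date refers to. Same-numbered libraries share a date, and the correlations across genes of their deviations from group means ran from 0.020 to 0.72 (median 0.20, over 0.1 in 48 of 58 pairs).

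The genes named, beside *Jag1* and *Lhx1*, are called genes of the Notch and LIM lists, up to 12 called renal vesicle genes, uncalled Notch ligands, receptors and effectors, the targeted genes, *Six2* and *Cited1*, and the 5 genes most like each member. Others were named after their values were seen, the cell type markers, *Ssbp3* and *Sox9* among them. The members and lists were chosen with earlier results of these data known. RefSeq positions were joined through Entrez identifiers, and all promoters of 300 bases were searched for motifs in their 250 upstream bases.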

Additional observations from a re-analysis of the deposited data

How the results depend on the processing

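The rise of *Jag1* and *Lhx1* in CTRL was called under every alternative (log2 fold changes without 1 library from 3.45 to 4.75 and 4.05 to 5.72). In β-catenin KO these ran from 1.09 to 2.56 and 1.33 to 3.56, against CTRL in high CHIR from −2.26 to −1.05 and −2.77 to −1.28, and for the difference of its response from −3.03 to −1.56 and −3.58 to −1.35, with no call. Leaving out 1 library gave log2 fold changes from 2.83 to 4.87 for *Jag1* and 3.85 to 6.69 for *Lhx1* in α-catenin KO, and 2.82 to 4.21 and 3.66 to 5.07 in QCKO, several without a call. The rise of *Jag1* in α-catenin KO was not called by edgeR (3.53, adjusted p = 0.0529), nor were those in QCKO with all 20 libraries (3.51 and 4.36). With the replicate block, that is the pairing by the date in the sample titles, *Jag1* in β-catenin KO against CTRL in high CHIR was called (−1.64), *Jag1* in QCKO against CTRL in high CHIR was −0.24, and no other call changed. Differences within the spread changed sign. For QCKO in high CHIR, edgeR and DESeq2 gave −0.13 and −0.11 for *Jag1*. For α-catenin KO in high CHIR, quantile normalization gave 0.074 for *Jag1*. For the response of *Lhx1* in α-catenin KO minus CTRL, edgeR and DESeq2 gave −0.25 and −0.22. Leaving out 1 library in high CHIR gave −0.64 to 0.51 (*Jag1*) and −1.02 to 0.31 (*Lhx1*) for α-catenin KO, and −0.68 to 0.71 and −0.83 to 0.57 for QCKO. In low CHIR it gave −0.76 to 1.28 and −1.99 to 0.85 for α-catenin KO, −0.052 to 1.29 and −0.34 to 1.23 for QCKO, and −0.081 to 1.39 and −0.62 to 1.61 for β-catenin KO. For the difference of the response it gave −1.29 to 0.75 and −1.06 to 1.78 for α-catenin KO, and −1.31 to 0.085 and −1.36 to 0.31 for QCKO. Leaving out β-catenin KO low CHIR replicates 2 and 3 together gave −0.999 and −2.05 against CTRL in low CHIR and, for the difference of the *Lhx1* response, 0.087. The cause of these changes was not tested beyond the smaller number of libraries. Counts of genes called ranged over the alternatives from 761 to 2556 for CHIR in CTRL, 504 to 1186 in α-catenin KO, 540 to 1855 in QCKO, 0 to 57 in β-catenin KO, 240 to 2881 for β-catenin KO against CTRL in high CHIR and 0 to 189 in low CHIR, and 50 to 400 for the difference of its response. The depth of 13 to 20 reads limits *Lhx1* in low CHIR on date 1.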
